A study of Mus musculus with 24 samples.

Results

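The acyl-CoA thioesterase genes Acot1, Acot2, Acot3, Acot4, Acot7, Acot8, Acot9, Acot12 and Acot13 were followed by RNA-seq of fasted mouse liver. They were taken by symbol, as 9 of the 35275 gene rows of a read-count table, and all 9 passed the filter on low counts. The table held 24 libraries, 4 from each of 6 genotypes, all from male C57BL/6 mice aged 8 to 10 weeks that were on chow and then without food for 24 h. Control mice, called wild type by the labels, were littermates with floxed Tsc1 and Cpt2. Tsc1 L-/-, Cpt2 L-/- and Tsc1Cpt2 L-/- (DKO) mice had lost one or both genes in liver through Albumin-Cre, so that cells in which Cre was not active would keep them. By their labels, the Ppara KO group lacked Pparα and the Cpt2 Ppara KO group lacked Pparα as well as hepatic Cpt2. How these last groups were bred, and in which cells Ppara was lost, was not given in the sources used here, so control littermates of their own cannot be assumed. Nothing in the labels says that replicates are separate animals, and p-values measure the spread between these libraries.

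Acyl-CoA thioesterases cleave fatty acyl-CoA into a free fatty acid and coenzyme A, and in this way set how much activated fatty acid and how much free CoA a compartment holds. The type I enzymes share an alpha/beta hydrolase fold and sit in different compartments, with Acot1 in the cytosol, Acot2 in the mitochondrial matrix and Acot3 and Acot4 in peroxisomes. The type II enzymes have a hot dog fold and include the peroxisomal Acot8, the mitochondrial Acot9, the largely mitochondrial Acot13 and the cytosolic Acot7 and Acot12. Several of the type I genes and Acot8 are well-known fasting-induced targets of the nuclear receptor Pparα in liver. Tsc1 restrains mTorc1, and Cpt2 releases long-chain acyl-CoA for β-oxidation inside mitochondria. The series holds fasted livers that lost Tsc1, Cpt2 or both, and livers that lost Pparα with or without Cpt2. The thioesterase genes can be compared among them.

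The type I members lie next to each other on chromosome 12 (GRCm38, plus strand), in the order Acot2, Acot1, Acot4, Acot3, Acot5 and Acot6, within 123.5 kb. Acot2 (ENSMUSG00000021226) spans chr12:83987861-83993873 and Acot1 (ENSMUSG00000072949) spans chr12:84009502-84017670. Acot4 (ENSMUSG00000052392) follows at chr12:84038379-84044723 and Acot3 (ENSMUSG00000021228) at chr12:84052144-84059565. The other members stand alone, with Acot7 (ENSMUSG00000028937) at chr4:152178134-152271855, Acot8 (ENSMUSG00000017307) at chr2:164792768-164804882, Acot9 (ENSMUSG00000025287) at chrX:155262443-155297654, Acot12 (ENSMUSG00000021620) at chr13:91741512-91786148 and Acot13 (ENSMUSG00000006717) at chr13:24817948-24831517.

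**Figure D1:**
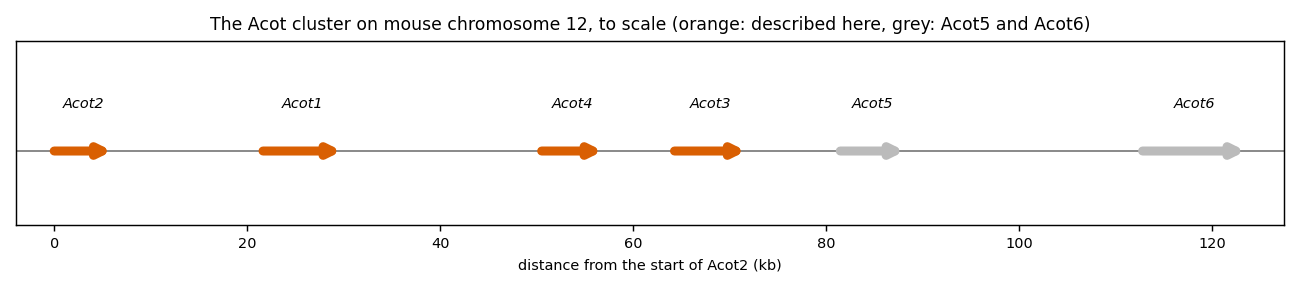
Map of the Acot cluster on mouse chromosome 12, with distance from the start of Acot2 in kb on the x axis and each gene drawn to scale as an arrow in the direction of transcription. The 4 genes described here (orange) lie side by side ahead of Acot5 and Acot6 (grey).

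These neighbours are so alike that a short read cannot always be given to one of them. The coding sequences of Acot1 and Acot2 were 95.3% identical over 1236 aligned bases, whereas Acot1 and Acot3 were 83.9% and Acot1 and Acot4 74.6% identical. The longest identical run in the aligned coding sequences of Acot1 and Acot2 was 273 bases, against a read length of 75 bases. The stretch below is 1 read long, lies in the coding part of a single exon of each gene, and starts at base 986 of the Acot1 coding sequence. It is shown because a read from it is the same for Acot1 and Acot2 but not for Acot3 or Acot4. Capitals mark the bases that differ from Acot1, of which there are 0 in Acot2, 6 in Acot3 and 26 in Acot4. The positions are chr12:84017105-84017179 for Acot1, chr12:83992827-83992901 for Acot2, chr12:84058752-84058826 for Acot3 and chr12:84043522-84043596 for Acot4 (GRCm38, plus strand).
Acot1: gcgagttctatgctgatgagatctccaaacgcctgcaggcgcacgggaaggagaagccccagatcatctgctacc
Acot2: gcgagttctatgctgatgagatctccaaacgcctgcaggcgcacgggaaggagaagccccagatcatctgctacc
Acot3: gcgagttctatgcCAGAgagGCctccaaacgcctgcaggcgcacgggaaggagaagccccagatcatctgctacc
Acot4: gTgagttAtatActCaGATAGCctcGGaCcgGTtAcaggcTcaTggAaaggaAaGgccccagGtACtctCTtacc

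Over all stretches of 75 bases in the annotated transcripts, 20.5% of those of Acot2 were also found in Acot1 and 11.2% of those of Acot1 in Acot2. The share found in any other gene was 14.98% for Acot1, 21.2% for Acot2, 18.1% for Acot3 and 9.90% for Acot4. It was 8.44% for Acot8, which overlaps Snx21 on the opposite strand, 5.29% for Acot9, 2.33% for Acot12 and 0 for Acot7 and Acot13. How reads that match more than 1 gene were counted is not stated, nor is the strand setting of the counting, so the split of reads among Acot1 to Acot4 is uncertain. A fit in which Acot1 to Acot6 were summed into 1 row is given beside the results it bears on.

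The 250 bases ahead of the 4 cluster genes (RefSeq, GRCm38.p6, plus strand) are printed to set the cluster genes side by side ahead of their values. Capitals mark AGGTCA or its reverse complement, the half-site that nuclear receptors such as Pparα read as a direct repeat with 1 base between the copies. The regions are chr12:84009252-84009501 for Acot1, chr12:83987611-83987860 for Acot2, chr12:84051894-84052143 for Acot3 and chr12:84038129-84038378 for Acot4.
Acot1: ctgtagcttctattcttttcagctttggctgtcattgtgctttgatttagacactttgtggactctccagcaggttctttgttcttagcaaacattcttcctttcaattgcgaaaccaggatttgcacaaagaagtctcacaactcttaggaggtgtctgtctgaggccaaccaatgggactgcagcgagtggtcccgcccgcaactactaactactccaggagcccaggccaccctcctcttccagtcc
Acot2: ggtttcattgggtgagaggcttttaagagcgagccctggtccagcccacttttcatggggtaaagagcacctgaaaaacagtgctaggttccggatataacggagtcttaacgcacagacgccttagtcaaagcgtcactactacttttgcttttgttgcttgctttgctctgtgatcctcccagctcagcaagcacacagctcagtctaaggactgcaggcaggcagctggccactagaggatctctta
Acot3: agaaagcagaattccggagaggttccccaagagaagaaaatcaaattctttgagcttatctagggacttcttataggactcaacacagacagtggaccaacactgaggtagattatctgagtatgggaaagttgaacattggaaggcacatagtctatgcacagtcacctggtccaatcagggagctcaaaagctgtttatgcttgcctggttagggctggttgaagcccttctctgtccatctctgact
Acot4: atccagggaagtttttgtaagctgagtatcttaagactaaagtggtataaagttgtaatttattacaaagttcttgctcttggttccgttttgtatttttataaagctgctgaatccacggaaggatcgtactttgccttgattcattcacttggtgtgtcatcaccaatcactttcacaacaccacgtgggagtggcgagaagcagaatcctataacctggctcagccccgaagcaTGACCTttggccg

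Of the 9 members, 8 had a promoter in the RefSeq table, and Acot13 did not. The whole repeat, AGGTCANAGGTCA searched on both strands, was in none of the 9 windows of 300 bases (250 before and 50 after the start) of these 8 members, Acot3 having 2 overlapping windows of which the first is printed, and in 0.04% of all 32851 promoters. The single half-site was in the windows of Acot3, Acot4 and Acot12 and in 16.3% of all promoters. Windows of this length say only whether these letters are present in them.

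Compared per length, as FPKM, Acot1, Acot12 and Acot13 had the 3 highest means in control, Tsc1 L-/-, Ppara KO and Cpt2 Ppara KO liver. In control liver Acot1 stood highest, at 159 ± 51.3 FPKM (mean ± SD, n = 4 here and below unless given), followed by the acetyl-CoA hydrolase Acot12 at 66.9 ± 4.48 and by Acot13 at 46.9 ± 6.19. Acot3 at 27.8 ± 19.4, Acot4 at 24.7 ± 8.56 and Acot8 at 19.0 ± 0.99 FPKM formed the middle of the order and overlapped between libraries. Acot7 was at 14.5 ± 0.29, Acot2 at 11.9 ± 6.11 and Acot9 lowest at 2.46 ± 0.61 FPKM. In Cpt2 L-/- liver the mitochondrial Acot2, at 157 ± 59.3 FPKM, came next after Acot1 at 619.7 ± 75.4, and in DKO liver it did so at 186 ± 90.2 after 418 ± 234 FPKM.

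The summed level of the 9 genes was 373 ± 90.6 FPKM in control, 196 ± 41.7 in Tsc1 L-/- and 1054 ± 129 in Cpt2 L-/- liver. It was 867 ± 352 FPKM in DKO, 169 ± 14.3 in Ppara KO and 445 ± 400 in Cpt2 Ppara KO liver. Libraries of Tsc1 L-/- and Ppara KO liver all lay below those of control, and libraries of Cpt2 L-/- and DKO liver all lay above them. Acot1 made up 42.0 ± 5.09% of the sum in control, 17.7 ± 11.5% in Tsc1 L-/-, 58.9 ± 3.02% in Cpt2 L-/- and 46.3 ± 6.26% in DKO liver. In Ppara KO liver its share was 30.2 ± 4.30%, close to the 29.0 ± 6.12% of Acot12.

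**Figure D2:**
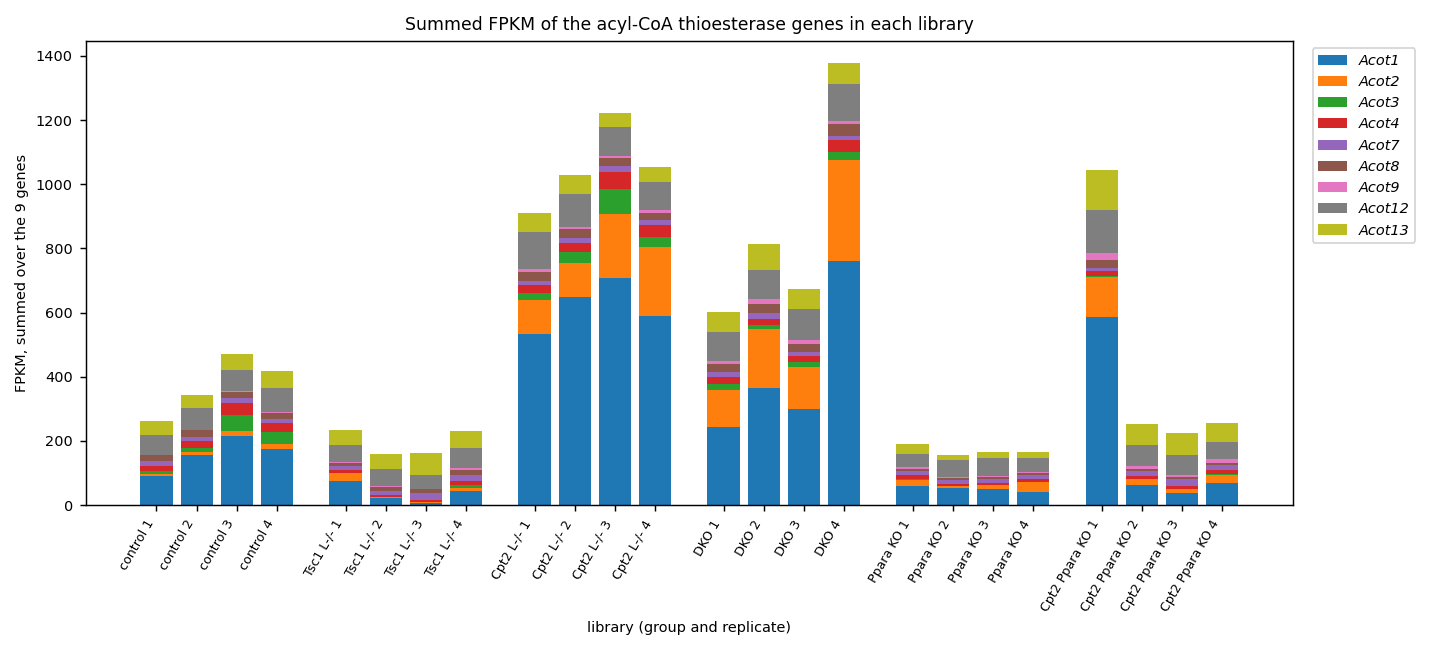
Stacked bars of FPKM for the 9 genes in each of the 24 libraries, with the sum over the genes on the y axis and 1 bar per library. Cpt2 L-/- bars reach 909 to 1222 FPKM, control bars 263 to 471, and Cpt2 Ppara KO replicate 1 reaches 1045 where the other 3 libraries of its group reach 226 to 257.

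Total counts were 14470968 to 20371204 per library. Tsc1 was lower in Tsc1 L-/- (24.4 ± 4.49 CPM) and DKO (16.6 ± 1.23 CPM) than in control liver (38.1 ± 1.39 CPM), and Ppara was lower in Ppara KO (27.4 ± 16.8 CPM) than in control liver (256 ± 29.6 CPM). Cpt2 counts did not mark the Cpt2 L-/- libraries, which held 80.3 to 105 CPM against 87.8 to 104 CPM in control, and reads outside a deleted exon would still be counted. Cpt2 Ppara KO replicate 1 stood furthest from its group. This library had the lowest mean correlation with its group (r = 0.928) and 91.9 CPM of Ppara against 26.2 to 46.2 CPM in the other 3. It held 125.5 CPM of Cpt2 against 31.7 to 39.1 CPM, which is above every control and Cpt2 L-/- library. Its Tsc1 was 24.3 CPM against 42.4 to 50.6 CPM, below every control library (36.8 to 39.9 CPM). Its Tsc1 and Cpt2 both lay within the ranges of Tsc1 L-/- libraries (18.0 to 28.6 and 118 to 172 CPM). The reason was not tested. Tests of the Cpt2 Ppara KO group are therefore given with and without replicate 1. Ppara KO libraries also differed among themselves, with mean correlations of 0.932 (replicate 4) to 0.956 (replicate 3). Ppara KO replicate 1 held 96.1 CPM of Cpt2 against 38.0 to 50.9 CPM in the other 3 of that group.

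Markers of liver cell types also moved with the groups, often through a few genes of a list. Hepatocyte markers (8 genes summed) were 63600 to 84600 CPM in control liver and lay below it without overlap in Cpt2 L-/- (38900 to 60800), DKO (30200 to 38100) and Cpt2 Ppara KO liver (46200 to 63200). Albumin, Alb, gave most of the control sum, at 39800 to 48100 CPM in control, 16400 to 37300 in Cpt2 L-/-, 10900 to 15000 in DKO and 22600 to 32400 in Cpt2 Ppara KO liver. Of the 8 genes, 3 lay below control in Cpt2 L-/- (Alb, Ttr and Serpina1a), 3 in DKO (Alb, Serpina1a and Hnf4a) and 1, Alb, in Cpt2 Ppara KO liver, and the others overlapped. In bulk tissue fewer cells of a type cannot be told apart from less RNA per cell. The macrophage sum (6 genes) overlapped control in every group, but the lysosomal marker Cd68 was above control (6.32 to 9.69 CPM) in Cpt2 L-/- (22.6 to 50.6), DKO (34.6 to 126) and Cpt2 Ppara KO liver (24.6 to 40.5). The Kupffer cell genes Clec4f, Vsig4, Cd5l and Timd4 lay below control in DKO liver, as Vsig4 did in Ppara KO, and Clec4f lay above it in Cpt2 Ppara KO liver. Stellate cell markers (6 genes) were 248 to 329 CPM in control and lay below it in Tsc1 L-/- (160 to 239), DKO (154 to 193) and Cpt2 Ppara KO liver (172 to 223), with 1, 4 and 3 of the 6 genes free of overlap. Endothelial markers (6 genes) were 291 to 327 CPM in control and 142 to 260 in Cpt2 Ppara KO liver, with 4 of 6 below control there. In the other groups the endothelial sum overlapped control, but Pecam1, Kdr and Cdh5 lay below it in DKO liver. Stab2 lay above control in Tsc1 L-/- and below it in Ppara KO liver, where Lyve1 lay above it. The cholangiocyte sum (5 genes) was higher in Ppara KO (12.8 to 29.0 CPM) than in control liver (4.8 to 9.93 CPM), through Sox9 (5.63 to 26 against 2.52 to 4.46 CPM), while Krt19, Krt7, Epcam and Cftr overlapped control. The lymphocyte sum (5 genes) was lower in Ppara KO liver (0.893 to 1.51 against 1.84 to 5.72 CPM), with 1 of the 5 genes, Cd79a, free of overlap. The 4 adipocyte markers summed to 366 to 686 CPM in Cpt2 L-/-, 403 to 557 CPM in DKO and 123 to 513 CPM in Cpt2 Ppara KO against 28.6 to 62.5 CPM in control liver, of which Cidec alone gave 365 to 681 in Cpt2 L-/-, 403 to 557 in DKO and 28.6 to 62.5 CPM in control. The defining adipocyte genes Adipoq, Plin1 and Lep were at most 2.60, 1.90 and 0.254 CPM in any library. Among them Plin1 lay above control (0 CPM) without overlap in Cpt2 L-/- liver, at 0.107 to 1.90 CPM, while Adipoq and Lep overlapped control there. The part of these cell type markers in the results that follow was not tested.

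**Figure D3:**
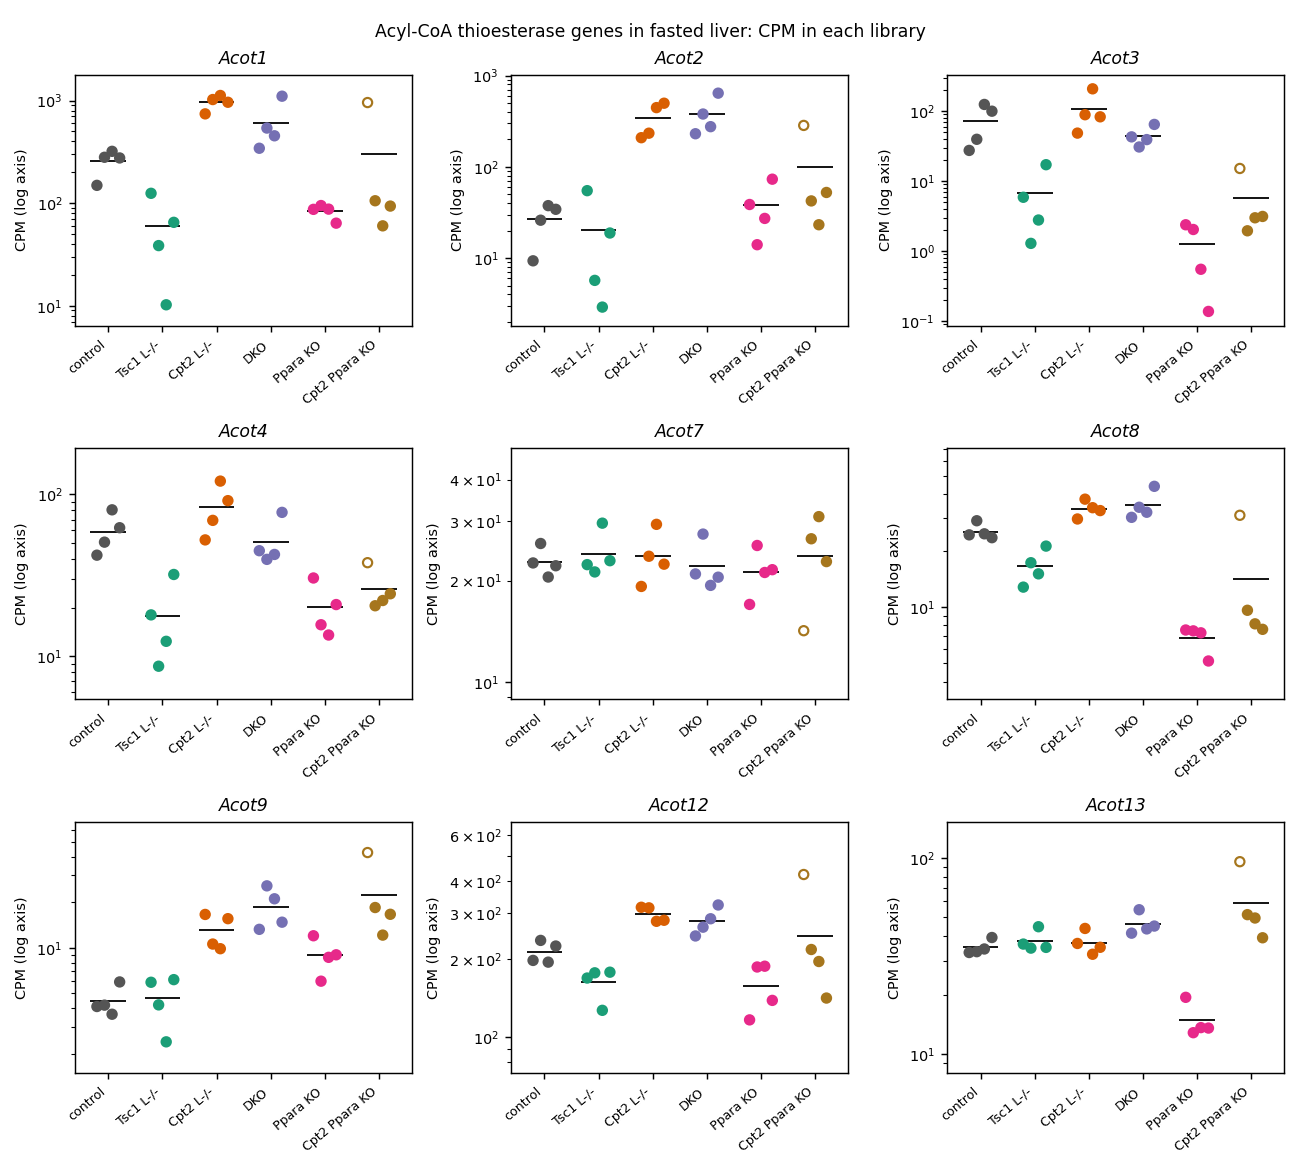
CPM of each gene in each library on a log axis, 1 panel per gene, with 4 points per group and a bar at the group mean. The open circle is Cpt2 Ppara KO replicate 1, which for Acot1 lies at 957 CPM above the 60.1 to 106 CPM of the other 3 libraries.

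Tsc1 loss lowered and Cpt2 loss raised members of the family, and no member was called in the opposite direction in either comparison. In Tsc1 L-/- against control, Acot1, Acot3, Acot4 and Acot8 were lower, 4 of 9 members, where 6.64% of all genes were called and 2.48% were called lower. In Cpt2 L-/- against control, Acot1, Acot2, Acot9 and Acot12 were higher, 4 of 9 members against 31% of all genes called and 16.2% called higher. In DKO against control, Acot2, Acot8, Acot9, Acot12 and Acot13 were higher, 5 of 9 members against 36.4% called and 19.3% called higher. Median log2 fold changes of the 9 members were -0.39, 0.48 and 0.39 in these comparisons, beside medians of 0.01, -0.02 and 0.02 over all genes tested. Those comparisons share the control libraries. The Tsc1 calls depended on which libraries shared the fit. With only control and Tsc1 L-/- libraries 0 members were called by edgeR (adjusted p from 0.0578 to 0.158 for those 4 genes), 5 had an unadjusted p under 0.05 and 3.58% of all genes were called. With all 24 libraries in one fit Acot1 and Acot8 lost the Tsc1 call, Acot1 and Acot12 the Cpt2 call, and Acot8, Acot12 and Acot13 the DKO call.

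Adding Cpt2 loss to Tsc1 loss moved the most members. In DKO against Tsc1 L-/-, 7 of 9 members were higher, all but Acot7 and Acot13, where 32.2% of all genes were called and 16.9% called higher, and the median log2 fold change was 1.52. Adding Tsc1 loss to Cpt2 loss moved none past the threshold. In DKO against Cpt2 L-/-, 0 of 9 members were called by edgeR, 0 by DESeq2 and 0 by limma, 1 had an unadjusted p under 0.05, and 18.3% of all genes were called. The interaction of the deletions, which is the Cpt2 effect in Tsc1-deficient liver minus that in Tsc1-intact liver, was called for 0 members by edgeR, DESeq2 and limma, with 2 at an unadjusted p under 0.05 and 2.38% of all genes called. The effect of Cpt2 loss on the family was thus not shown to differ with Tsc1.

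The peroxisomal members and Acot13 were lower in Ppara KO than in control liver. Since control littermates of the Ppara-deficient groups cannot be assumed, Pparα loss cannot be told apart from differences in breeding in these comparisons. In Ppara KO against control, Acot3, Acot4, Acot8 and Acot13 were lower and Acot9 was higher, 5 of 9 members against 29% of all genes called, 13.2% called lower and 15.9% called higher. In Cpt2 Ppara KO against Cpt2 L-/-, Acot3, Acot4 and Acot8 were lower and Acot13 was higher, 4 of 9 members against 18.4% of all genes called, 8.01% called lower and 10.3% called higher. In Cpt2 Ppara KO against Ppara KO, Acot1, Acot8, Acot9 and Acot13 were higher, 4 of 9 members against 25.5% called and 12.9% called higher. The interaction of Cpt2 and Ppara loss was called for 1 member, Acot13, where 24% of all genes were called. Without Cpt2 Ppara KO replicate 1 the counts became 6, 6, 2 and 3 of 9, beside 33.9%, 13.3%, 12.4% and 22.3% of all genes.

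**Figure D4:**
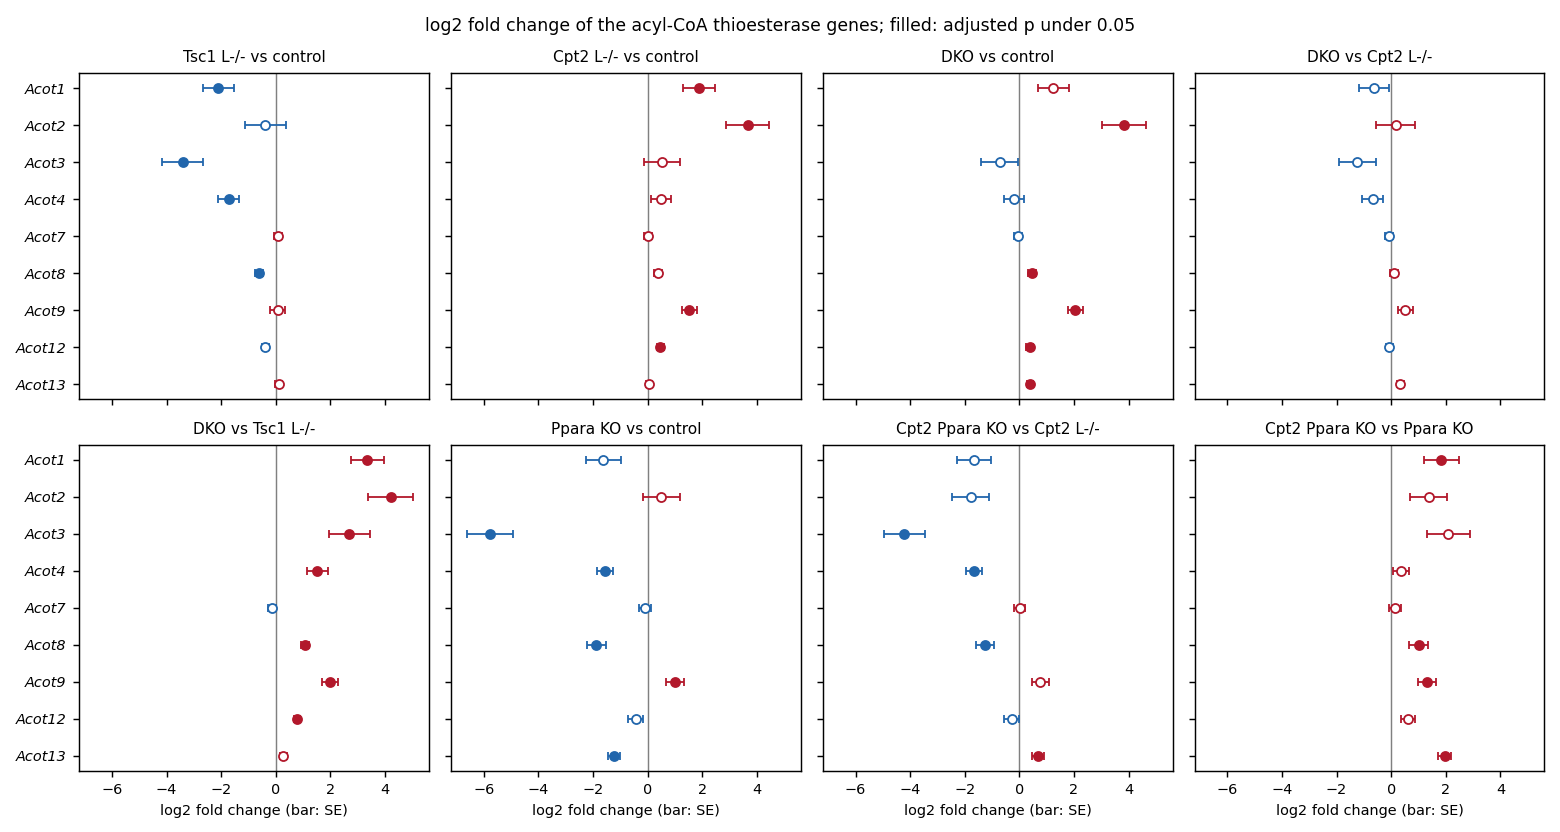
log2 fold changes of the 9 genes with SE bars in the 8 comparisons of 2 groups, red when higher and blue when lower in the first group, filled where the edgeR adjusted p was under 0.05. Every filled point is blue in Tsc1 L-/- against control and red in Cpt2 L-/- against control, DKO against control and DKO against Tsc1 L-/-.

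Acot1, the cytosolic long-chain enzyme, reached the highest CPM of the family. Control libraries held 149, 276, 280.2 and 320.2 CPM, and Cpt2 L-/- libraries held 742, 964, 1024 and 1122 CPM. DKO libraries held 343, 454, 539.9 and 1104 CPM. Every library of Cpt2 L-/- and DKO liver was above every control library. Tsc1 L-/- libraries held 10.2, 38.6, 65.05 and 125 CPM, and Ppara KO libraries held 63.9, 87.05, 87.5 and 94.8 CPM. Cpt2 Ppara KO libraries held 60.1, 93.7, 106 and 957 CPM. In order of mean CPM the groups ran Cpt2 L-/- (963 ± 161), DKO (610 ± 339), Cpt2 Ppara KO (304 ± 436), control (256 ± 74.2), Ppara KO (83.3 ± 13.4) and Tsc1 L-/- (59.7 ± 48.9). Neighbours in this order overlapped, except that control lay above Ppara KO.

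Acot1 was 3.69-fold higher in Cpt2 L-/- than in control liver (log2 fold change 1.88, SE 0.57, edgeR adjusted p = 0.0230) and 4.30-fold lower in Tsc1 L-/- (-2.11, SE 0.58, adjusted p = 0.0456). The first call was lost without control replicate 1 (1.73, adjusted p = 0.0604). The second was lost without any 1 of 12 libraries (control replicates 2, 3 and 4, Tsc1 L-/- replicates 2 and 4, each Cpt2 L-/- replicate and DKO replicates 1, 2 and 3), at log2 fold changes of -2.15 to -1.94 and adjusted p of 0.0508 to 0.115, and without Tsc1 L-/- replicate 1 it was -2.75 (adjusted p = 0.0149). DKO liver was 2.37-fold higher than control, which did not pass (adjusted p = 0.0990, and 0.0247 without Tsc1 L-/- replicate 3), and 10.2-fold higher than Tsc1 L-/- liver (log2 fold change 3.35, SE 0.61, adjusted p = 0.000947). Without Tsc1 L-/- replicate 1, the highest of its group, this last log2 fold change was 3.999. Against Cpt2 L-/-, DKO liver had a log2 fold change of -0.64 (SE 0.55, adjusted p = 0.454).

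Whether Acot1 was called after Pparα loss differed between fits. Ppara KO liver was 3.08-fold lower than control with all 4 libraries below the lowest control library, but the fit of 16 libraries gave an adjusted p of 0.0665. With Cpt2 Ppara KO replicate 1 left out, the same log2 fold change of -1.62 had an adjusted p of 9.722e-05, and without replicate 3 of that group one of 0.0374. With all 4 libraries per group it was also called by edgeR on control and Ppara KO libraries alone (adjusted p = 0.00126) and by limma on log2(FPKM + 1) (-1.57, adjusted p = 0.0492), but not by DESeq2 (adjusted p = 0.0537). In Cpt2 Ppara KO against Cpt2 L-/- the log2 fold change went from -1.66 (adjusted p = 0.0795) to -3.47 (7.79e-07) without that library, which is 11.1-fold lower, and it was -2.62 (adjusted p = 0.00579) by limma on log2(FPKM + 1) with every library kept. Against Ppara KO it went from 1.84 (adjusted p = 0.0454) to 0.03 (0.945), and leaving out any 1 of 11 other libraries also lost that call, at 1.71 to 1.92 (adjusted p up to 0.0975). The interaction of Cpt2 and Ppara loss went from -0.04 (adjusted p = 0.979) to -1.85 (0.00180). In the 3 remaining libraries Acot1 was at 86.5 ± 23.6 CPM (n = 3), overlapping Ppara KO liver.

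Acot2, the mitochondrial matrix enzyme and the near-copy of Acot1, had the largest fitted fold change of the family in Cpt2 L-/- against control. Control libraries held 9.33, 26, 34.2 and 37.6 CPM. Cpt2 L-/- libraries held 209, 234, 445 and 498 CPM, and DKO libraries 230.4, 275, 379 and 641 CPM. Both groups lay far above control and overlapped each other. Tsc1 L-/- libraries held 2.90, 5.70, 18.8 and 54.8 CPM, Ppara KO libraries 14.0, 27.2, 38.6 and 73.2 CPM, and Cpt2 Ppara KO libraries 23.2, 42.3, 52.4 and 284 CPM. These 3 groups overlapped control. The order of means was DKO (382 ± 184), Cpt2 L-/- (346 ± 147), Cpt2 Ppara KO (101 ± 123), Ppara KO (38.3 ± 25.4), control (26.8 ± 12.6) and Tsc1 L-/- (20.6 ± 23.9), and all neighbours overlapped.

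Acot2 was 12.7-fold higher in Cpt2 L-/- than in control liver (log2 fold change 3.66, SE 0.80, edgeR adjusted p = 0.00395) and 14.2-fold higher in DKO (3.83, SE 0.81, adjusted p = 0.00272). DKO liver was 18.5-fold higher than Tsc1 L-/- liver (log2 fold change 4.21, SE 0.82, adjusted p = 0.00179), and without Tsc1 L-/- replicate 1 the log2 fold change was 5.37. Acot2 was not called in Tsc1 L-/- against control, at a log2 fold change of -0.38 (SE 0.74, adjusted p = 0.833), or in Ppara KO against control, at 0.51 (SE 0.67, adjusted p = 0.604). Whether its responses differed from those of its neighbours was not tested. In Cpt2 Ppara KO against Cpt2 L-/- its log2 fold change was -1.78 (adjusted p = 0.0789), -3.13 (0.00302) without Cpt2 Ppara KO replicate 1 and -2.34 (0.0205) by limma on log2(FPKM + 1) with all libraries. Against Ppara KO, Cpt2 Ppara KO liver gave 1.37 (adjusted p = 0.143), below the 2.09 of Acot3, 1.96 of Acot13 and 1.84 of Acot1, and 0.03 (0.982) without that library. The interaction of Cpt2 and Ppara loss was -2.29 (adjusted p = 0.0890), -3.64 (0.00441) without that library and -2.74 (0.0384) by limma on log2(FPKM + 1) with all libraries.

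Acot3, a peroxisomal long-chain enzyme, was the member most reduced by Pparα loss. Control libraries held 27.4, 39.5, 99.6 and 124 CPM, and Ppara KO libraries held 0.137, 0.550, 2.03 and 2.38 CPM, from 2, 8, 27 and 52 reads. Tsc1 L-/- libraries held 1.29, 2.78, 5.87 and 17.1 CPM. Both groups lay below every control library. Cpt2 L-/- libraries held 48.4, 82.7, 88.7 and 208 CPM, DKO libraries 30.7, 39.1, 42.8 and 64.4 CPM, and Cpt2 Ppara KO libraries 1.95, 2.99, 3.12 and 15.1 CPM. The Cpt2 L-/- and DKO libraries overlapped control and each other. In order of mean CPM the groups ran Cpt2 L-/- (107 ± 69.6), control (72.7 ± 46.7), DKO (44.3 ± 14.4), Tsc1 L-/- (6.77 ± 7.17), Cpt2 Ppara KO (5.80 ± 6.24) and Ppara KO (1.27 ± 1.10), with the only gap between neighbours falling between DKO and Tsc1 L-/-.

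Acot3 was 54.9-fold lower in Ppara KO than in control liver (log2 fold change -5.78, SE 0.85, edgeR adjusted p = 0.000164) and 10.7-fold lower in Tsc1 L-/- (-3.42, SE 0.76, adjusted p = 0.0180). The Tsc1 call was lost without Tsc1 L-/- replicate 1 (log2 fold change -3.35, adjusted p = 0.0504), and without replicate 4 the log2 fold change was -4.44. DKO liver was 6.49-fold higher than Tsc1 L-/- liver (log2 fold change 2.70, SE 0.74, adjusted p = 0.0142), and without Tsc1 L-/- replicate 4 the log2 fold change was 3.72. It was not called in Cpt2 L-/- against control (log2 fold change 0.53, adjusted p = 0.591) or in DKO against Cpt2 L-/- (-1.25, SE 0.68, adjusted p = 0.220), and Cpt2 Ppara KO against Ppara KO gave 2.09 (adjusted p = 0.0631, and 0.0437 without Ppara KO replicate 1), or 1.013 (adjusted p = 0.403) without Cpt2 Ppara KO replicate 1. On the Cpt2-deficient background Pparα loss lowered Acot3 by 18.6-fold (log2 fold change -4.22, SE 0.76, adjusted p = 0.00199), and by 39.2-fold (-5.29, adjusted p = 0.000584) without Cpt2 Ppara KO replicate 1. The interaction with Cpt2 was 1.56 (SE 1.03, adjusted p = 0.283) in the one fit and 0.48 (0.756) in the other.

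Acot4, the peroxisomal enzyme for succinyl-CoA and other dicarboxylyl-CoA esters, was called in the same 4 comparisons as Acot3, in the same directions. It held 42.1 to 80.3 CPM in control, 8.68 to 32.0 CPM in Tsc1 L-/-, 52.4 to 121 CPM in Cpt2 L-/- and 39.7 to 77.5 CPM in DKO liver. In Ppara KO liver it held 13.5 to 30.5 CPM and in Cpt2 Ppara KO liver 20.5 to 37.9 CPM. The libraries of Tsc1 L-/- and of both Ppara-deficient groups lay below all control libraries. The order of means was Cpt2 L-/- (83.5 ± 29.7), control (58.9 ± 16.5), DKO (51.2 ± 17.7), Cpt2 Ppara KO (26.2 ± 7.93), Ppara KO (20.1 ± 7.55) and Tsc1 L-/- (17.8 ± 10.3 CPM), and DKO and Cpt2 Ppara KO were the only neighbours that did not overlap.

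In the tests Acot4 was 3.31-fold lower in Tsc1 L-/- than in control liver (log2 fold change -1.73, SE 0.38, edgeR adjusted p = 0.0161), 2.93-fold lower in Ppara KO (-1.55, SE 0.29, adjusted p = 0.000954) and 2.86-fold higher in DKO than in Tsc1 L-/- (1.52, SE 0.38, adjusted p = 0.00765). Pparα loss on the Cpt2-deficient background lowered it 3.18-fold (log2 fold change -1.67, SE 0.29, adjusted p = 0.00142), and 3.72-fold without Cpt2 Ppara KO replicate 1 (-1.89, adjusted p = 0.000597). It was not called in Cpt2 L-/- against control, at a log2 fold change of 0.48 (SE 0.37, adjusted p = 0.357), or in DKO against control.

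Pooled, the cluster genes were lower in Tsc1 L-/- and higher in Cpt2 L-/- and DKO liver. With Acot1 to Acot6 summed, the split of counted reads among these genes no longer matters. Stretches shared with genes outside the sum remain, with 4732463B04Rik (9.31% of Acot4 and 6.90% of Acot3) and with Gm49366 (10.3% of Acot3). Reads that the counting may have discarded are not recovered either. The summed log2 fold change was -1.98 (SE 0.52, edgeR adjusted p = 0.0365) in Tsc1 L-/-, 1.83 (SE 0.52, adjusted p = 0.0155) in Cpt2 L-/- and 1.38 (SE 0.51, adjusted p = 0.0476) in DKO against control. In Ppara KO against control it was -1.49 (SE 0.57, adjusted p = 0.0603), and in Cpt2 Ppara KO against Cpt2 L-/- it was -1.77 (SE 0.58, adjusted p = 0.0429). Without Cpt2 Ppara KO replicate 1, a fit added after seeing the data, these were -1.49 (SE 0.25, adjusted p = 0.000325) and -3.27 (SE 0.30, adjusted p = 2.038e-06). Cpt2 Ppara KO against Ppara KO went from 1.55 (SE 0.57, adjusted p = 0.0562) to 0.05 (SE 0.26, adjusted p = 0.914) without that library, and the Cpt2 by Ppara interaction from -0.27 (SE 0.79, adjusted p = 0.831) to -1.78 (SE 0.37, adjusted p = 0.00334). Acot1 gave most of these reads in every control and Cpt2 L-/- library. Of the neighbours outside the 9 members, Acot6 held 0.773 to 1.85 CPM in control and 3.49 to 5.91 CPM in Cpt2 L-/- liver and rose 1.69 on the log2 scale (adjusted p = 0.000228), and Acot5 had at most 26 reads in any library.

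Acot8, the peroxisomal enzyme of broad chain length and the only type II member there, was lower in Ppara KO than in control liver, with no overlap. Control libraries held 23.4, 24.3, 24.6 and 28.8 CPM, and Ppara KO libraries held 5.15, 7.28, 7.46 and 7.54 CPM. Tsc1 L-/- libraries held 12.8, 15.02, 17.2 and 21.1 CPM. Control, Tsc1 L-/- and Ppara KO libraries formed a descending order with no overlap. Cpt2 L-/- libraries held 29.5, 32.7, 33.9 and 37.6 CPM and DKO libraries 30.1, 32.0, 34.0 and 44.0 CPM, all above control and overlapping each other. Cpt2 Ppara KO libraries held 7.60, 8.13, 9.60 and 30.8 CPM, so that 3 of them sat just above Ppara KO and 1 among the Cpt2 L-/- libraries. In order of mean CPM the groups ran DKO (35.0 ± 6.20), Cpt2 L-/- (33.4 ± 3.35), control (25.3 ± 2.43), Tsc1 L-/- (16.5 ± 3.56), Cpt2 Ppara KO (14.0 ± 11.2) and Ppara KO (6.86 ± 1.14), and of these neighbours only DKO with Cpt2 L-/- and Tsc1 L-/- with Cpt2 Ppara KO overlapped.

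The fold changes of Acot8 were 1.53 lower in Tsc1 L-/- (log2 fold change -0.61, SE 0.15, edgeR adjusted p = 0.0203), 3.70 lower in Ppara KO (-1.89, SE 0.34, adjusted p = 0.000712) and 1.38 higher in DKO than in control liver (0.46, SE 0.15, adjusted p = 0.0214). The Tsc1 call was lost without control replicate 2 (-0.54, adjusted p = 0.0705) or Tsc1 L-/- replicate 1 (-0.50, adjusted p = 0.0598). The DKO call was lost without control replicate 3 (0.45, adjusted p = 0.0518), control replicate 4 (0.43, adjusted p = 0.0568) or DKO replicate 4 (0.33, adjusted p = 0.0931). Cpt2 L-/- liver had a log2 fold change of 0.37 (SE 0.15, adjusted p = 0.0635), just outside the threshold, and the adjusted p was 0.0372 to 0.0455 without control replicate 2, Tsc1 L-/- replicate 1 or 4 or DKO replicate 4. DKO liver was 2.11-fold higher than Tsc1 L-/- liver (log2 fold change 1.08, SE 0.15, adjusted p = 4.05e-05), and of all members Acot8 had the smallest p for the interaction of the deletions (0.70, SE 0.21, adjusted p = 0.0846). Without Tsc1 L-/- replicate 4 that interaction was 0.84 (adjusted p = 0.0382).

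With Cpt2 already lost, Pparα loss lowered Acot8 2.39-fold (log2 fold change -1.26, SE 0.33, edgeR adjusted p = 0.0166), and 3.95-fold (-1.98, adjusted p = 1.353e-06) without Cpt2 Ppara KO replicate 1, while without replicate 2 it was -1.11 (adjusted p = 0.0588). With Pparα already lost, Cpt2 loss gave a log2 fold change of 1.001 (SE 0.34, adjusted p = 0.0400), and of 0.28 (adjusted p = 0.285) without that library, although all 3 remaining libraries were still above those of Ppara KO liver. This call was also lost without Cpt2 L-/- replicate 1 or any 1 Ppara KO library, at 0.86 to 1.05 (adjusted p = 0.0524 to 0.102).

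**Figure D5:**
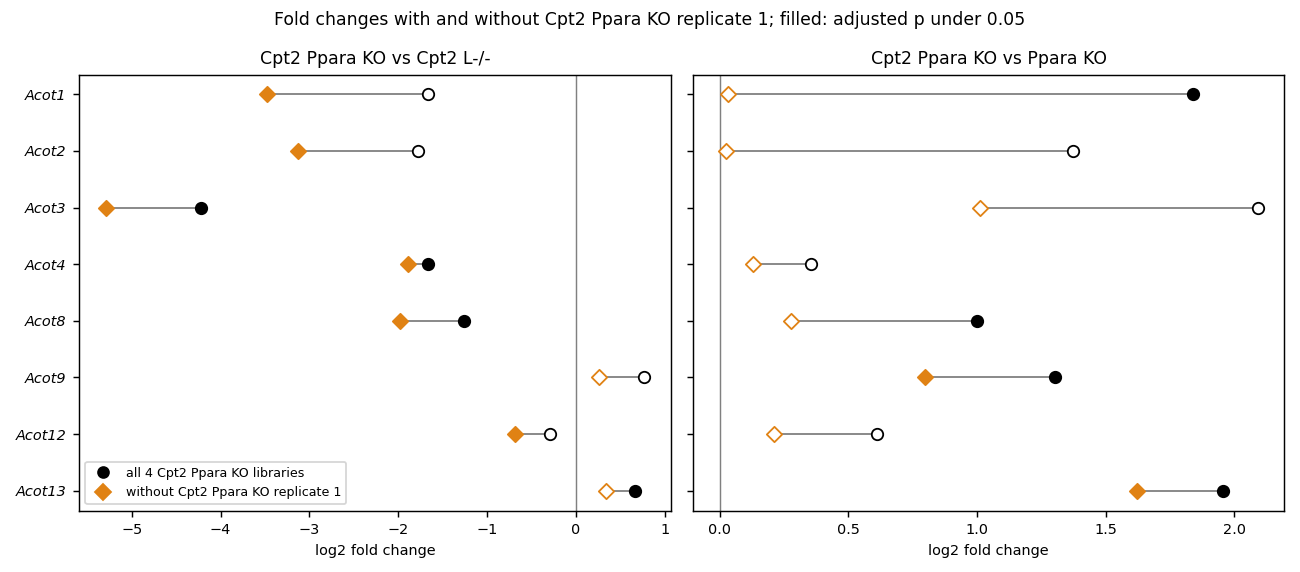
log2 fold changes of 8 genes in Cpt2 Ppara KO against Cpt2 L-/- (left) and against Ppara KO (right), with all 4 Cpt2 Ppara KO libraries (black circles) and without replicate 1 (orange diamonds), filled where the edgeR adjusted p was under 0.05. Leaving the library out moved Acot1 from -1.66 to -3.47 on the left and from 1.84 to 0.03 on the right, while Acot9 and Acot13 stayed called on the right.

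Acot9, a mitochondrial enzyme of the inner membrane and matrix, was higher with Cpt2 loss in Tsc1- and Pparα-intact, Tsc1-deficient and Pparα-deficient liver, the last call being lost with only the 2 groups in the fit. Control libraries held 3.65, 4.10, 4.19 and 5.96 CPM and Tsc1 L-/- libraries 2.40, 4.20, 5.93 and 6.17 CPM. Cpt2 L-/- libraries held 9.87, 10.6, 15.6 and 16.6 CPM and DKO libraries 13.2, 14.8, 21.1 and 25.6 CPM. All 8 Cpt2-deficient libraries were above all 8 of control and Tsc1 L-/-. Ppara KO libraries held 6.03, 8.65, 8.995 and 12.01 CPM and Cpt2 Ppara KO libraries 12.1, 16.6, 18.4 and 42.5 CPM. The order of means was Cpt2 Ppara KO (22.4 ± 13.6), DKO (18.7 ± 5.74), Cpt2 L-/- (13.2 ± 3.42), Ppara KO (8.92 ± 2.45), Tsc1 L-/- (4.67 ± 1.75) and control (4.47 ± 1.02), and all neighbours overlapped.

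Acot9 was 2.89-fold higher in Cpt2 L-/- (log2 fold change 1.53, SE 0.28, edgeR adjusted p = 0.000526), 4.14-fold higher in DKO (2.05, SE 0.28, adjusted p = 2.874e-05) and 1.99-fold higher in Ppara KO (0.99, SE 0.33, adjusted p = 0.0335) than in control liver. On the Tsc1-deficient background the fold was 3.96 (log2 fold change 1.99, SE 0.28, adjusted p = 5.041e-05). The Ppara KO call was lost without any 1 of 5 libraries (control replicates 1, 2 and 3 and Ppara KO replicates 1 and 3), at 0.81 to 1.013 (adjusted p = 0.0577 to 0.0939). Cpt2 loss on the Ppara KO background raised it 2.46-fold (log2 fold change 1.30, SE 0.33, adjusted p = 0.0115), and 1.74-fold (0.80, adjusted p = 0.0471) without Cpt2 Ppara KO replicate 1. With only these 2 groups in the fit it was 1.31 (adjusted p = 0.0726), and the call was lost. DKO against Cpt2 L-/- gave 0.52 (SE 0.27, adjusted p = 0.183), Tsc1 L-/- against control gave no call, and Cpt2 Ppara KO against Cpt2 L-/- gave 0.77 (adjusted p = 0.103, and 0.0414 without Cpt2 Ppara KO replicate 3), or 0.26 (adjusted p = 0.548) without replicate 1.

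Acot13, a small hot dog fold enzyme of mitochondria that binds phosphatidylcholine transfer protein, was the only member called for an interaction when edgeR was run with every library of the 4 groups. Acot1 and Acot2 were called as well without Cpt2 Ppara KO replicate 1, Acot2 by limma with all libraries, and Acot8, for the interaction with Tsc1, without Tsc1 L-/- replicate 4. Control libraries held 33.0, 33.3, 34.4 and 39.3 CPM and Ppara KO libraries 12.9, 13.6, 13.7 and 19.5 CPM. Cpt2 L-/- libraries held 32.3, 35.1, 36.7 and 43.7 CPM and Cpt2 Ppara KO libraries 39.2, 49.4, 51.4 and 95.7 CPM. Pparα loss therefore went with lower counts where Cpt2 was intact. Where Cpt2 was lost, the Cpt2 Ppara KO libraries overlapped those of Cpt2 L-/- liver, with a higher mean. Tsc1 L-/- libraries held 34.7, 35.0, 36.4 and 44.6 CPM and DKO libraries 41.4, 43.5, 45.0 and 54.5 CPM. In order of mean CPM the groups ran Cpt2 Ppara KO (58.9 ± 25.1), DKO (46.1 ± 5.78), Tsc1 L-/- (37.7 ± 4.68), Cpt2 L-/- (36.9 ± 4.87), control (35.0 ± 2.95) and Ppara KO (14.9 ± 3.08), with Ppara KO alone free of overlap.

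Acot13 was 2.35-fold lower in Ppara KO than in control liver (log2 fold change -1.23, SE 0.23, edgeR adjusted p = 0.000763) and 3.88-fold higher in Cpt2 Ppara KO than in Ppara KO liver (1.96, SE 0.23, adjusted p = 0.000322). Cpt2 L-/- against control gave only 0.05 (SE 0.12, adjusted p = 0.786). The interaction of Cpt2 and Ppara loss was 1.91 (SE 0.32, adjusted p = 0.000906), and it was 1.57 (adjusted p = 0.000284) without Cpt2 Ppara KO replicate 1. The call of Acot13 as higher in Cpt2 Ppara KO than in Cpt2 L-/- liver (log2 fold change 0.67, SE 0.22, adjusted p = 0.0442) was lost without that library (0.34, adjusted p = 0.188) and without any 1 of 10 others, at 0.61 to 0.73 (adjusted p = 0.0504 to 0.126). In DKO against control Acot13 was 1.31-fold higher (0.39, SE 0.12, adjusted p = 0.0188), a call lost without DKO replicate 2 (0.30, adjusted p = 0.0736), and in DKO against Cpt2 L-/- the log2 fold change was 0.34 (adjusted p = 0.0612), past the threshold without Cpt2 L-/- replicate 2 (0.0246) or Tsc1 L-/- replicate 3 (0.0439).

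Acot12, the cytosolic acetyl-CoA hydrolase of liver and kidney, had its widest spread in Cpt2 Ppara KO liver. It held 194 to 236 CPM in control, 127 to 178 CPM in Tsc1 L-/-, 279 to 317 CPM in Cpt2 L-/- and 245 to 323 CPM in DKO liver. Ppara KO libraries held 116 to 188 CPM and Cpt2 Ppara KO libraries 141 to 423 CPM. Tsc1 L-/- and Ppara KO libraries lay below all control libraries, and Cpt2 L-/- and DKO libraries lay above them. It was 1.37-fold higher in Cpt2 L-/- (log2 fold change 0.46, SE 0.13, edgeR adjusted p = 0.0103) and 1.30-fold higher in DKO than in control liver (0.38, SE 0.13, adjusted p = 0.0245), and 1.71-fold higher in DKO than in Tsc1 L-/- liver (0.78, SE 0.13, adjusted p = 0.000171). The DKO call against control was lost without control replicate 1 or 3 or DKO replicate 3 or 4, at log2 fold changes of 0.31 to 0.38 (adjusted p = 0.0541 to 0.0890). Tsc1 L-/- against control gave -0.39 (adjusted p = 0.0727) and Ppara KO against control gave -0.44 (adjusted p = 0.214). It was not called in Cpt2 Ppara KO against Cpt2 L-/- (-0.29, adjusted p = 0.462), and without Cpt2 Ppara KO replicate 1 it was (-0.69, adjusted p = 0.0253).

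Acot7, a cytosolic enzyme best known from brain, was called in none of the 10 comparisons. Its means lay between 21.3 ± 3.46 CPM in Ppara KO and 24.0 ± 3.82 CPM in Tsc1 L-/- liver, with single libraries from 14.2 to 31.0 CPM. Both extremes came from the Cpt2 Ppara KO group, and all groups overlapped. At the spread of these libraries the SE of its log2 fold changes was 0.15 in the fit of Tsc1 and Cpt2 loss and 0.21 in that of Cpt2 and Ppara loss.

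Thioesterases outside the 9 members formed a list of 8 genes, of which 5 were tested. In Cpt2 L-/- against control 1 was higher, Acot6, and 3 were lower, beside 16.2% and 14.9% of all genes. Acot11 was lower at 1.58 ± 0.26 against 4.34 ± 0.44 CPM (log2 fold change -1.48, edgeR adjusted p = 0.00110), and Baat, which conjugates bile acids to amino acids, at 131 ± 14.0 against 249 ± 21.4 CPM (-0.95, adjusted p = 7.582e-05). Tsc1 L-/- against control had 1 higher and 1 lower, beside 4.16% and 2.48% of all genes, and DKO 1 and 2, beside 19.3% and 17.1%. Ppara KO against control had 1 higher and 2 lower, beside 15.9% and 13.2%, and 3 higher and 2 lower of 6 tested without Cpt2 Ppara KO replicate 1. The counts were 1 higher and 0 lower in Cpt2 Ppara KO against Cpt2 L-/-, beside 10.3% and 8.01%, and 2 higher and 1 lower against Ppara KO, beside 12.9% and 12.6%. These last counts were the same, of 6 tested, without Cpt2 Ppara KO replicate 1.

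Enzymes around the thioesterases were read from lists of acyl-CoA synthetases, which make acyl-CoA, carnitine acyltransferases, which move acyl groups across mitochondrial membranes, genes of CoA synthesis and breakdown, and acyl-CoA binding proteins. These lists, like that of the other thioesterases, were written with earlier results of the data known. In Tsc1 L-/- against control, 3 of 18 synthetases tested were lower and 0 higher, where 2.48% of all genes were called lower and 4.16% higher, among them Acsl1, the main long-chain synthetase of liver, at 936 ± 234 against 1892 ± 384 CPM (log2 fold change -1.02, edgeR adjusted p = 0.0183). None of the 14 CoA genes was called there, and of 6 carnitine acyltransferases Cpt2 alone was called, higher by 0.51 on the log2 scale (adjusted p = 0.0375). In Cpt2 L-/- against control, 4 synthetases were higher and 5 lower, beside 16.2% and 14.9% of all genes. The fatty acid transporter and synthetase Slc27a1 rose from 20.9 ± 6.19 to 137 ± 44.6 CPM (2.68, adjusted p = 2.526e-05), and Acsm1, a medium-chain synthetase, fell from 260.3 ± 12.7 to 88.2 ± 16.1 CPM (-1.59, adjusted p = 6.311e-05). Carnitine acetyltransferase Crat rose from 105 ± 20.6 to 271 ± 63.1 CPM (1.34, adjusted p = 0.00562). In DKO against control, 3 synthetases were higher and 6 lower, beside 19.3% and 17.1% of all genes, and of 14 CoA genes 1 was higher, Ppcs, an early enzyme of CoA synthesis (1.61, adjusted p = 5.21e-07), and 2 were lower, the pantetheinase Vnn3 (-1.44, adjusted p = 4.557e-06) and the mitochondrial carrier Slc25a16 (-0.29, adjusted p = 0.0285).

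Pparα loss lowered members of each of these lists where Cpt2 was intact. In Ppara KO against control, 11 of 18 synthetases, 8 of 14 CoA genes, 4 of 6 binding proteins and 3 of 5 carnitine acyltransferases were lower, while 1, 0, 2 and 0 were higher, and 13.2% of all genes were called lower and 15.9% higher. Their median log2 fold changes were -1.01, -0.73, -1.78 and -0.85, beside 0.01 over all genes tested. The pantetheinase Vnn1, which acts in CoA breakdown, fell by 7.69 on the log2 scale (adjusted p = 1.098e-05), the liver fatty acid binding protein Fabp1 fell by 4.85 (adjusted p = 0.00394) and the peroxisomal carnitine octanoyltransferase Crot fell by 2.82 (adjusted p = 6.61e-05). In Cpt2 Ppara KO against Cpt2 L-/-, 8 of 18 synthetases, 4 of 14 CoA genes, 4 of 5 carnitine acyltransferases and 0 of 6 binding proteins were lower, where 8.01% of all genes were called lower. Without Cpt2 Ppara KO replicate 1 the counts were 8, 3, 4 and 2, where 13.3% of all genes were called in either direction. Crat fell by 2.14 there (edgeR adjusted p = 5.018e-05), and fell by 2.49 (7.79e-07) without that library. In Cpt2 Ppara KO against Ppara KO, 4 CoA genes and 4 of 6 binding proteins were higher, where 12.9% of all genes were called higher, but 2 and 1 were higher without that library, where 12.4% were called in either direction. Dbi, the acyl-CoA binding protein of the cytosol, held 289 ± 319 against 90.1 ± 21.6 CPM (1.65, adjusted p = 0.0195), with 767 CPM in Cpt2 Ppara KO replicate 1 and 118 to 142 CPM in the other 3, and was not called without replicate 1 (0.50, adjusted p = 0.0952).

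Genes whose log2 CPM ran most nearly with each member over the 24 libraries were taken from 12260 genes with a mean of at least 1 CPM. The correlations are descriptions, since libraries of a genotype are not independent points and the genotypes set most of the pattern. Acot1 ran with the carnitine transporter Slc22a5 (r = 0.947) and Crat (0.943), and Acot4 with Slc22a5 (0.924) and Acot3 (0.896). Acot2 ran with the lipid droplet protein Plin2 (0.938), and Acot3 with the peroxisomal thiolase Acaa1a (0.936). Acot8 had the closest partners of any member, the enoyl-CoA isomerase Eci2 (0.984), the carnitine-acylcarnitine carrier Slc25a20 (0.982) and the trifunctional protein subunit Hadhb (0.975). Acot9 ran with the seryl-tRNA synthetase Sars (0.951), Acot13 with Rmnd1 (0.938) and Acot12 with Slc25a46 (0.916). Acot7 had no partner above 0.696, Fam134a, and that value was 0.521 without Cpt2 Ppara KO replicate 1. Without that library the other correlations named here lay between 0.896 and 0.984, and between the members themselves the closest pairs were Acot3 with Acot8 (0.901) and Acot3 with Acot4 (0.896), whereas Acot3 and Acot9 were at 0.106.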

How the data were processed

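Libraries were TruSeq stranded mRNA from TRIzol-extracted liver, read as single 75-base reads. The authors deposited read counts per gene, with gene lengths, and FPKM, which equalled the counts divided by length and library total within rounding. The submitters' processing notes name STAR 2.5, HTSeq 0.6.1 and other tools without roles. Coordinates are GRCm38. Total counts were 14470968 to 20371204 per library. No library pair in a group was a duplicate in 36 pairs. Counts were tested in R 4.3.3 with edgeR 4.0.16 (filterByExpr, minimum count 10, TMM, robust quasi-likelihood test, two-sided), adjusted by Benjamini-Hochberg over 13641 genes (control, Tsc1 L-/-, Cpt2 L-/-, DKO) and 13615 genes (control, Cpt2 L-/-, Ppara KO, Cpt2 Ppara KO), threshold 0.05, without covariates, and checked on simulated data. CPM used TMM over 24 libraries and correlations a prior count of 2. Alternatives were DESeq2 1.42.0, RLE factors, no filter, other sets of libraries, a replicate block, limma 3.58.1 on log2(FPKM + 1) and log2(FPKM + 0.1), summed cluster counts and leaving out each library. Pathway genes named are at most 3 per list and comparison, those with the largest called change and no overlap between groups, and the 3 genes most like each member were taken by Pearson correlation. All members are named. Members and lists were chosen with earlier results of these data known.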

Additional observations from a re-analysis of the deposited data

Results flagged for a closer look

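In 54 gene and group sets of 4 libraries, 8 held a library far from the other 3. The rule would flag about 1 in 20 sets of independent, normally distributed values. These genes were measured in the same libraries, so the sets are not independent and the count cannot be set against chance. Of the 8, 4 were the highest value of Cpt2 Ppara KO replicate 1, with 957 CPM of Acot1, 284 CPM of Acot2, 15.1 CPM of Acot3 and 30.8 CPM of Acot8. That library also held more Ppara and Cpt2 and less Tsc1 than the other 3 of its group, and its part in the results was measured by leaving it out. The other 4 were Acot4 in DKO replicate 4, the highest at 77.5 CPM, Acot8 in Ppara KO replicate 4, the lowest at 5.15 CPM, Acot13 in Tsc1 L-/- replicate 3, the highest at 44.6 CPM, and Acot13 in Ppara KO replicate 1, the highest at 19.5 CPM. The response of Acot13 to Cpt2 loss differed between livers with and without Pparα, by a log2 difference of 1.91 in the edgeR interaction test.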

How the results depend on the processing

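Leaving out single libraries kept the direction of all 544 values of called members, of which 485 stayed called. The other alternatives kept the direction of all 286 values, of which 252 stayed called. With all 24 libraries in one fit the members called against control numbered 2 in Tsc1 L-/-, 2 in Cpt2 L-/- and 2 in DKO liver, beside 2.86%, 20% and 24.9% of all genes. With only the 2 groups compared in the fit they numbered 0 in Tsc1 L-/- against control, 2 in Cpt2 Ppara KO against Cpt2 L-/- and 1 in Cpt2 Ppara KO against Ppara KO, beside 3.58%, 13% and 0.868% of all genes. That last count was 2 without a filter, 2 by limma on log2(FPKM + 1) and 2 on log2(FPKM + 0.1), beside 11.7%, 21.7% and 21.8%, and the Cpt2 by Ppara interaction count was 2 by limma with either pseudocount, beside 20.7% and 20%. The cause was not tested. Without 1 library the counts ran, against control, from 2 to 4 in Tsc1 L-/- (2 without control replicate 2 or Tsc1 L-/- replicate 1), from 3 to 5 in Cpt2 L-/- and from 3 to 6 in DKO liver (3 without control replicate 3 or DKO replicate 4), from 0 to 1 in DKO against Cpt2 L-/-, from 7 to 8 in DKO against Tsc1 L-/-, from 0 to 1 for the Tsc1 by Cpt2 interaction, from 4 to 6 in Ppara KO against control, from 2 to 6 in Cpt2 Ppara KO against Cpt2 L-/-, from 2 to 5 in Cpt2 Ppara KO against Ppara KO and from 1 to 3 for the Cpt2 by Ppara interaction. In the same order the share of all genes called ran from 4.22% to 6.99%, 24.7% to 32.7%, 29.7% to 37.6%, 10.3% to 19.9%, 26.8% to 31.9%, 1.08% to 2.91%, 21.1% to 33.9%, 8.28% to 21.6%, 12.4% to 29.8% and 17.3% to 27.2%. A few values that were not called changed sign. Acot2 in Ppara KO against control ran from -0.0063 (without Ppara KO replicate 4) to 0.78 without single libraries and was -1.49 with the cluster summed, Acot8 in the Cpt2 by Ppara interaction ran from -0.097 (without Cpt2 Ppara KO replicate 1) to 0.82, and with the cluster summed Acot3 was 1.38 in DKO against control and -0.27 in the Cpt2 by Ppara interaction (-1.78, adjusted p = 0.00334, without Cpt2 Ppara KO replicate 1 as well). In the summed fit the value is that of all reads counted for Acot1 to Acot6.

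Same-numbered libraries did not deviate together (correlation over 0.1 in 6 of 24 pairs in either fit), and with a replicate block the members called in Cpt2 Ppara KO against Ppara KO were 2, beside 25.9% of all genes, with no other count moved by over 1.5 times. Folds under 0.25 on the log2 scale that were not called were left out of this comparison. Counts near 0, as for Acot3 in Ppara KO liver, limit how closely a fold can be known.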
